A study of Arabidopsis thaliana with 4 samples.

Results

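The 42 genes described here lie on chromosome 2 of Arabidopsis thaliana and were far more abundant in globular embryos of the serrate-1 mutant (se-1) than in wild-type embryos. They were chosen from the deposited raw counts. A single-locus row of chromosome 2 needed at least 20 counts over the 4 libraries and a ratio of at least 8 between the mean level in se-1 and the mean level in wild type. Levels are CPM, the counts of a row scaled by the total of its library, and 0.1 CPM was added to both means before the division. Of 2966 chromosome 2 rows with at least 20 counts, 48 (1.62%) met the ratio. The choice then left out 7 named loci, 6 of which had met the ratio, and 42 of the 27880 rows of a table remained. Because the difference between genotypes chose these genes, their ratios are given as a description and carry no test.

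SERRATE (SE, AT2G27100) is a zinc-finger protein that helps DCL1 and HYL1 cut microRNAs out of longer precursors and has a further role in splicing. The gene itself lies on chromosome 2, and the se-1 allele weakens its function without abolishing it. Both genotypes were in the Col background. All plants had a dark period of at least 4 days at 4 °C and then grew in soil at 22 °C with daily 16 h of light and 8 h of darkness. Embryos were at the stage of 32 to 64 cells, and each genotype had 2 libraries, which the series calls biological replicates. RNA was amplified from its poly(A) tail before library preparation, a step that can change the measured level of short against long transcripts.

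The libraries held 18580516 and 20882004 counts for se-1 and 18894161 and 19362653 counts for wild type. The SE transcript stood at 69.8 and 71.0 CPM in se-1 and at 97.2 and 97.4 CPM in wild type, a ratio of 0.724. A weak allele can alter the protein and leave the transcript in place. All 8 embryo markers had counts, with summed levels of 1164 and 1097 CPM in se-1 and 1423 and 1479.8 CPM in wild type. Summed levels of 9 endosperm markers were 167 and 160.5 CPM in se-1 and 199 and 186 CPM in wild type, and those of 12 seed coat markers were 969 and 1024 CPM in se-1 and 825 and 812 CPM in wild type. By the edgeR test used further below, 2 of the 8 embryo markers were called higher in se-1 and 3 lower. Of the 9 endosperm markers 3 were higher and 5 lower, and of the 12 seed coat markers 7 were higher and 2 lower. Over all tested rows 36.2% were higher and 36.0% lower. None of these markers was at 0 in all libraries, and their part in the levels below was not tested. In bulk samples, fewer cells of a type and less RNA per cell cannot be told apart, and whatever else separated the mutant from the wild-type embryos cannot be told apart from the genotype.

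Mitochondria that fail to carry out respiration signal to the nucleus, and in Arabidopsis this retrograde signal acts through the membrane-anchored factors ANAC013 and ANAC017. These NAC proteins bind the mitochondrial dysfunction motif (MDM) upstream of stress genes such as the alternative oxidase gene AOX1A. The motif was searched as CTTG, then 5 bases of any kind, then CAAG or CACG, on both strands in the 300 bases before each annotated gene start. The search found no match in that window before AOX1A. The motif was found before 5 of the 42 genes (11.9%), against 31 of the 2966 eligible chromosome 2 rows (1.05%) and 377 of 27575 rows of all chromosomes (1.37%). Upstream sequences of 4 of these genes are printed because no other motif searched was as unevenly shared between the set and the rest. They come from the RefSeq TAIR10.1 genome, are written 5′ to 3′ on the strand of the gene, end at the last base before the annotated start and show the motif in capitals. Each begins up to 30 bases before the motif farthest from the start.
AT2G03130, chr2:940552-940606, plus strand: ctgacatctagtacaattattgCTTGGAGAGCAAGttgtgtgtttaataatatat
AT2G04050, chr2:1339469-1339713, minus strand: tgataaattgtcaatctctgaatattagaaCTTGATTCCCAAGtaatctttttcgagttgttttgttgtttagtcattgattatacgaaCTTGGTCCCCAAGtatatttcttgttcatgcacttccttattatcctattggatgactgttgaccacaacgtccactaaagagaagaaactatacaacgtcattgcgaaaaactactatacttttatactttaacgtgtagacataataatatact
AT2G21640, chr2:9254297-9254377, plus strand: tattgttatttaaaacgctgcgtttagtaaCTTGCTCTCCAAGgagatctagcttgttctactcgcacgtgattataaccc
AT2G42065, chr2:17553029-17553113, minus strand: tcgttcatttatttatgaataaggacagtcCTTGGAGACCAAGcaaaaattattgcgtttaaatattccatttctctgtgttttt

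All the matches printed had the form that ends in CAAG, and AT2G04050 held 2 of them. The distance from the match to the annotated start was 20 bases in AT2G03130, 38 in AT2G21640, 42 in AT2G42065 and 143 from the nearer match in AT2G04050. The window of AT2G03130 was short because exons of the neighbour AT2G03120 lie before it. Exons of AT2G42080 lie within the 300 bases before AT2G42065 too, upstream of the stretch printed. Other motifs were as frequent in the set as elsewhere or less so. The G-box CACGTG was found before 7.14% of the set and 7.75% of eligible chromosome 2 rows, and the W-box (TTGACC or TTGACT) before 31.0% and 30.6%. The site II element of ribosomal and respiratory genes (TGGGCC or TGGGCT) was before 11.9% and 23.7%, the telo-box AAACCCTA before 2.38% and 4.72%, and the GCC-box GCCGCC before 2.38% and 2.56%. A match is a description of the letters and not evidence of binding.

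Levels of the 5 genes with an MDM match were low in wild type and between 2.58 and 13.4 CPM in se-1. AT2G04050, a transporter of the MATE family, stood at 13.4 and 12.4 CPM in se-1 and at 0.582 and 0.258 CPM in wild type, a ratio of 25. AT2G21640, known as UPOX and annotated as a marker of the oxidative stress response, stood at 7.32 and 8.38 CPM against 0.688 and 0.62 CPM, a ratio of 10.5. AT2G03130, which encodes a protein of 110 residues annotated to the L12 and ClpS family, stood at 4.52 and 4.21 CPM against 0.37 and 0.258 CPM, a ratio of 10.8. Both se-1 libraries were close to each other in these 3 genes. They were far above both wild-type libraries, which the choice of the genes favours.

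AT2G18190, a P-loop nucleoside triphosphate hydrolase, had 48 and 54 counts in se-1 against 0 and 0. With 3 counts summed over wild type as the floor, it was at least 33.0-fold higher. AT2G42065, a DnaJ domain protein, had 55 and 70 counts in se-1 and 0 and 1 in wild type, so its ratio of 25.9 rests on a single wild-type count. AT2G41730, another gene of the mitochondrial and oxidative stress list, had 122 and 115 counts against 1 and 1, a ratio of 40.3 and the second highest of the set. Its 300 upstream bases held none of these letters, which says nothing about the factor.

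The respiratory chain contributed a pair of small subunits. SDH8 (AT2G46390), a plant-specific subunit of succinate dehydrogenase (complex II), stood at 97.4 and 99.9 CPM in se-1 and at 5.87 and 8.21 CPM in wild type, a ratio of 13.8. AT2G47690, annotated as an NADH-ubiquinone oxidoreductase-like protein (complex I), stood at 36.8 and 38.1 CPM against 2.86 and 3.15 CPM, a ratio of 12.1. In proportion to their level, the wild-type libraries of SDH8 differed more from each other than the se-1 libraries did. In neither gene did the genotypes overlap, which the choice of the genes favours.

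Ribosomal proteins of the smallest kind were the next pair. AT2G25210 encodes an L39 protein of 44 residues and stood at 133 and 132 CPM in se-1 and at 10.7 and 10.2 CPM in wild type, a ratio of 12.5. AT2G40205 encodes an L41 protein of 25 residues and stood at 35.6 and 39 CPM against 2.12 and 2.27 CPM, a ratio of 16.3. Per kilobase of transcript, AT2G25210 was the second most abundant of the 42 genes in se-1, at 329 CPM per kb. The other copies of both families were also higher in se-1 by the test across all rows (edgeR quasi-likelihood, Benjamini-Hochberg adjusted). The L39 copies AT3G02190 and AT4G31985 had log2 fold changes of 4.31 and 2.55, and the 4 other L41 copies had 1.95 to 4.87, all with an adjusted p of 1.3e-11 or less.

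Metabolic and redox enzymes included one of the most abundant genes of the set. GSTF9 (AT2G30860), a glutathione S-transferase of the phi class, which couples glutathione to reactive compounds, stood at 264 and 268 CPM in se-1 and at 16.2 and 14.3 CPM in wild type, a ratio of 17.3. MAPR2 (AT2G24940), a membrane-associated progesterone binding protein, stood at 43.3 and 44.5 CPM against 3.97 and 4.44 CPM, a ratio of 10.2. In both genes the replicates lay close together in each genotype.

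AT2G37540, a Rossmann-fold protein that binds NAD(P), had a ratio of 8.49, and AT2G36690, an oxygenase dependent on 2-oxoglutarate and iron, had 11 and 19 counts in se-1 against 0 and 0, at least 9.69-fold higher. PDX1L4 (AT2G38210), a short relative of the vitamin B6 synthesis enzyme PDX1.1, stood at 9.26 and 6.75 CPM in se-1 and at 0.212 and 0.103 CPM in wild type, a ratio of 31.5. Over 472 nt its transcript is 99.8% identical to that of PDX1.1 (AT2G38230), which had 18238 and 19519 counts in se-1 and 3475 and 3911 in wild type, so reads of PDX1.1 could be counted at PDX1L4 and its level is uncertain.

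Wall and secreted proteins were the largest group by working role, with 8 genes and ratios of 9.88 to 57.4. Roles were assigned with earlier results of these data known. Their shares among all eligible chromosome 2 rows were not counted, so the size of a group is a description. GRP-3 (AT2G05520), a glycine-rich protein known to bind the wall-associated kinase WAK1, had the highest ratio of the set. It stood at 172 and 163 CPM in se-1 and at 2.49 and 3.15 CPM in wild type, a ratio of 57.4. ATPMEPCRD (AT2G43050), annotated to the family of pectin methylesterases and their inhibitors, stood at 76.5 and 64.5 CPM against 1.64 and 1.7 CPM, a ratio of 39.8. ENODL11 (AT2G23990), an early nodulin-like protein, stood at 38.4 and 39.5 CPM against 3.18 and 3.0 CPM, a ratio of 12.2.

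The others of that group were lower in level. AT2G14690, a glycosyl hydrolase with the synonym ATXYN4, stood at 15.2 and 14.2 CPM in se-1 and at 1.27 and 1.29 CPM in wild type. MIOX2 (AT2G19800) oxidises myo-inositol to glucuronic acid, a precursor of wall sugars, and had 100 and 113 counts in se-1 against 1 and 11 in wild type. The GDSL lipase gene AT2G04570 had 116 and 95 counts against 2 and 9, and stood at 5.4 ± 1.2 CPM in se-1 (SD, n = 2). The arabinogalactan protein gene AGP30 had 55 and 80 counts against 1 and 4, and stood at 3.4 ± 0.616 CPM in se-1 (SD, n = 2). In these 3 genes the wild-type libraries differed by several counts, but neither reached the lower se-1 library, which the choice of the genes favours. AT2G05530, a glycine-rich protein gene next to GRP-3, had 17 and 18 counts in se-1 against 0 and 0, at least 11.3-fold higher.

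Small cysteine-rich or defence-related proteins numbered 4. AT2G38870, a protease inhibitor of the potato inhibitor I type, stood at 63.2 and 57.0 CPM in se-1 and at 3.92 and 5.47 CPM in wild type, a ratio of 12.6. SCRL17 (AT2G25685), an SCR-like peptide, stood at 11.5 and 8.81 CPM against 0.212 and 0.568 CPM, a ratio of 21. LCR68 (AT2G02130), a plant defensin also called PDF2.3, had a ratio of 9.71, and the chitinase gene AT2G43610 had 23 and 23 counts against 0 and 2, a ratio of 8.37.

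Transcription factors had high ratios, from 19.8 to 32.9. ERF71 (AT2G47520), an ethylene response factor also called HRE2 that takes part in responses to low oxygen, stood at 26 and 23.3 CPM in se-1 and at 0.529 and 0.775 CPM in wild type. AT2G38250, a trihelix factor known as GT-3b and annotated as homeodomain-like, stood at 11.3 and 11.0 CPM against 0.318 and 0.31 CPM, a ratio of 27.2. AT2G28200, a zinc-finger protein of the C2H2 type, had 82 and 94 counts against 2 and 3.

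Signalling, transport and seed protection were each represented by a pair of genes near the lower limit of the ratio. GH3.1 (AT2G14960), of the GH3 family that joins auxin to amino acids, stood at 9.9 and 9.91 CPM in se-1 and at 0.847 and 1.34 CPM in wild type, a ratio of 8.38. CIPK16, a kinase that works with calcineurin B-like calcium sensors, stood at 3.39 and 3.06 CPM against 0.265 and 0.31 CPM, a ratio of 8.59. The aquaporin gene PIP2B had a ratio of 8.68, and the zinc transporter gene ZIP7 had 14 and 24 counts against 1 and 0. LEA18 and AT2G03740 encode late embryogenesis abundant proteins, a class known from drying seeds, with ratios of 9.59 and 8.05. LEA18 had 58 and 65 counts in se-1 against 5 and 4, and AT2G03740 had 17 and 19 against 0 and 1.

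Of the remaining genes, AT2G46540 was the most abundant of the set per kilobase of transcript in se-1, at 469 CPM per kb. It encodes a protein of 65 residues that RefSeq describes only as fiber, and stood at 251 and 282 CPM in se-1 and at 23.9 and 22.2 CPM in wild type. SPR1 (AT2G03680), a microtubule-associated protein that keeps cell elongation straight, stood at 115 and 114 CPM against 12.6 and 15.1 CPM, a ratio of 8.18. The reticulon gene AT2G01240, whose family shapes the endoplasmic reticulum, had a ratio of 11.2. The uncharacterised gene AT2G14247 had 100 and 134 counts in se-1 against 2 and 3, a ratio of 26. Another, AT2G02515, stood at 17.8 and 18.6 CPM against 2.28 and 2.07 CPM, a ratio of 8.07. AT2G04500, with a C1 domain rich in cysteine and histidine, had 24 and 25 counts against 0 and 1.

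**Figure D1:**
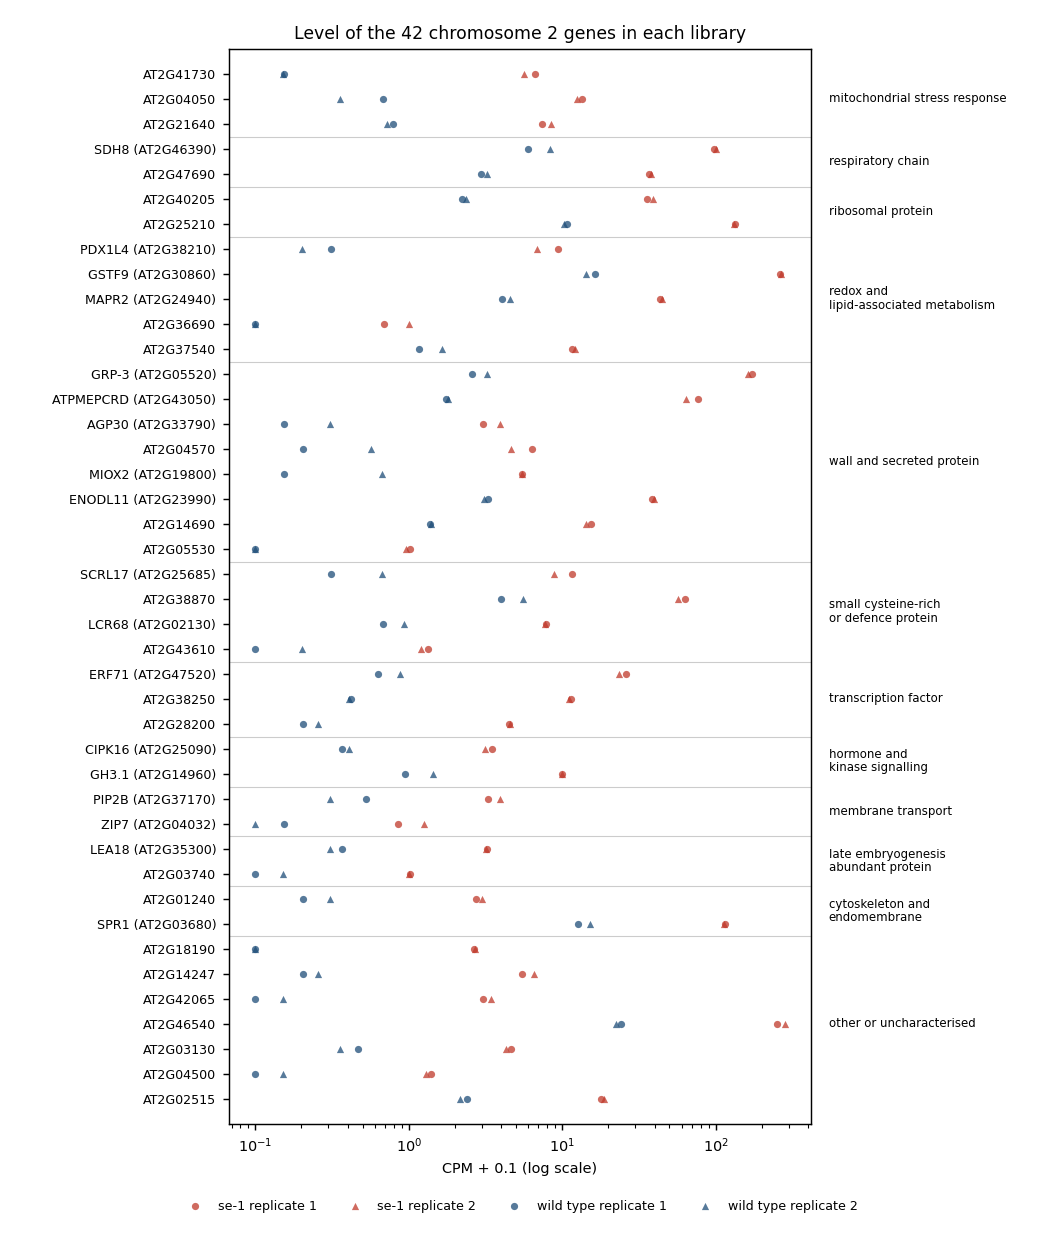
Level of each of the 42 genes in each library, as CPM + 0.1 on a log axis, with red for se-1, blue for wild type, circles for replicate 1 and triangles for replicate 2, grouped by working role. The genes were chosen by the ratio of these same values, so the separation of red from blue points is largely set by the choice. GRP-3 shows the widest ratio (57.4).

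Across the set the ratio ran from 8.05 to 57.4 with a median of 12.2, 13 genes were below 10 and 11 were at 20 or above. The median log2 ratio was 3.61, against 0.06 over all eligible chromosome 2 rows. Summed over the 42 genes the level was 1526 and 1534 CPM in se-1 and 99.9 and 106 CPM in wild type. Mean levels in se-1 ran from 0.751 to 267 CPM, with 19 genes at 10 CPM or more and 4 below 1 CPM. In wild type 23 genes had fewer than 20 counts over both libraries, of which 3 had none and 6 had 1 to 3. Their ratios depend on the CPM added. With 1 CPM added in place of 0.1, 15 of the 42 genes still met the ratio, among them GRP-3, GSTF9, ERF71 and AT2G46540.

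The genes just inside the limit were AT2G03740 (8.05), AT2G02515 (8.07) and SPR1 (8.18). Those just outside were AT2G26520 (7.99), AT2G33847 (7.85) and CYP79B3 (7.82). The single-count wild-type genes AT2G03740 and CYP79B3 had ratios of raw counts, scaled by library totals, of 34.9 (exact 95% interval 5.88 to 1416) and 33.9 (5.7 to 1378). Such intervals describe counting error alone, because amplified reads without molecular identifiers are not independent molecules.

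Transcripts of the set were short. The median length was 988.5 nt, against 1675.5 nt over all eligible chromosome 2 rows, and 21 of the 42 genes were under 1000 nt, against 15.4% of eligible rows. Proteins under 130 residues made up 42.9% of the set (18 of 42) and 8.42% of the eligible coding rows. Among all eligible chromosome 2 rows the ratio was higher for short transcripts. The median log2 ratio of chromosome 2 rows was 0.78 under 500 nt, 1.13 at 500 to 750 nt, 0.32 at 1000 to 1500 nt and -0.66 at 3000 nt and above. The set held 6 of the 68 rows under 500 nt, 8 of the 127 rows of 500 to 750 nt, 12 of the 769 rows of 1000 to 1500 nt and none of the 307 rows of 3000 nt and above. For an alternative choice, the eligible rows of all 5 nuclear chromosomes were cut into 20 finer length classes of about equal size. With each ratio divided by the median ratio of its finer class, 22 of the 42 genes still met the limit of 8. Those that did not included SDH8, UPOX and the L39 gene AT2G25210, while GRP-3, ATPMEPCRD, ERF71, GSTF9 and the L41 gene AT2G40205 met it. The part of length in the ratios was not tested.

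**Figure D2:**
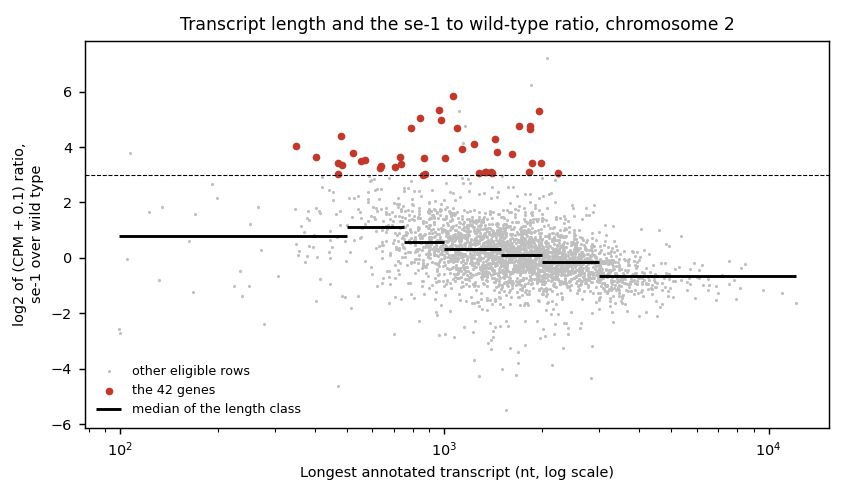
The log2 ratio of se-1 to wild type (0.1 CPM added) against the length of the longest annotated transcript on a log axis, for eligible chromosome 2 rows in grey and the 42 genes in red. Black bars are medians of length classes and fall from 1.13 at 500 to 750 nt to -0.66 at 3000 nt and above, and the dashed line is the limit of the choice (a ratio of 8). The grey points above that line are the loci left out.

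Along chromosome 2 the 42 genes were spread over both sides of SE. In locus order SE was row 1265 of the 2966 eligible rows. Before it lay 23 of the genes among 1264 rows (1.82%) and after it 19 among 1701 rows (1.12%). Within 100 eligible rows on each side of SE, 200 rows in all, lay 1 gene of the set, the zinc-finger gene AT2G28200, 80 rows after SE. The nearest before SE was SCRL17 at 106 rows. AT2G26520, 42 rows before SE, missed the ratio at 7.99 and met it with 0.01 CPM added, without the second se-1 library and without the first wild-type library.

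The genes were most frequent at the low-numbered end. With the eligible rows cut into 5 equal parts in locus order, the part from AT2G01060 to AT2G17860 held 15 of the genes (2.53% of its rows), the part around SE, from AT2G26040 to AT2G34160, held 3 (0.506%), and each of the other parts held 8 (1.35%). The stretch up to AT2G05530 held 12 among 278 rows (4.32%). Its end point is itself a gene of the set, which raises its share. The 5 equal parts had median log2 ratios over all their rows of 0.01 to 0.09 and median transcript lengths of 1609 to 1727 nt. The low-numbered part held 2 of 15 genes with 1 CPM added and 7 of 23 after division by the length-class median. Strands were evenly used, with 21 genes on each.

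Runs of neighbouring genes were rare. GRP-3 and AT2G05530 were adjacent, and 4 pairs lay at most 5 eligible rows apart, among them PDX1L4 with AT2G38250 and ZIP7 with AT2G04050. The median step between consecutive genes was 39 rows, and the longest was 230 rows, from AT2G43610 to SDH8. On the other nuclear chromosomes together, 148 of 16521 eligible rows (0.896%) met the same ratio, with 0.851%, 1.06%, 0.748% and 0.905% on chromosomes 1, 3, 4 and 5. The share on chromosome 2 was above that of the other chromosomes together in each of 12 alternative settings. This difference was known when the chromosome was chosen and is a description.

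**Figure D3:**
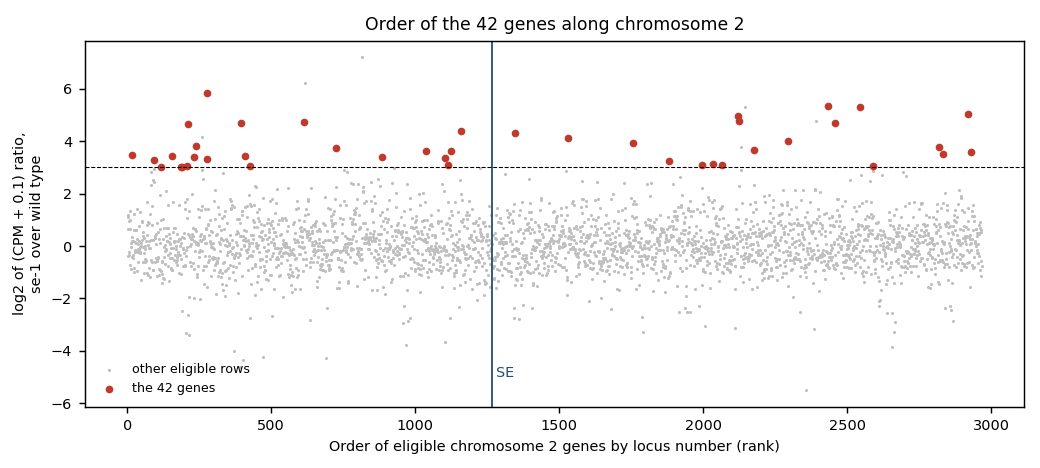
The log2 ratio of se-1 to wild type (0.1 CPM added) of 2966 eligible chromosome 2 rows by rank in locus order, with the 42 genes in red, other rows in grey and SE marked by the vertical line at rank 1265. Of the 42 genes, 23 lie before SE and 19 after it, and the dashed line is the limit of the choice (a ratio of 8), above which the grey points are the loci left out.

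Other genes were tested across all rows with edgeR. AT2G18193 and NDB4, left out by name, had met the ratio of the choice. Counts that hold one of them are also given without it. All other chromosome 2 rows counted here had missed that ratio, because rows that met it were in the set or left out by name. The shares over all tested rows include rows past the ratio. Of 18714 rows tested, 36.2% were higher and 36.0% lower in se-1, so a share of calls is read against these. Among the nearest tested rows on each side of the 42 genes, 82 in all, 36 (43.9%) were higher, 25 (30.5%) were lower and 21 did not pass, with a median log2 fold change of 0.17. Without AT2G18193, 35 of 81 (43.2%) were higher. Neighbours called at least 4-fold higher numbered 8 (9.76%), or 7 without AT2G18193, against 4.3% of all tested rows. The median transcript length of all 82 neighbours was 1409.5 nt, against 1741 nt over all tested rows, and the part of length was not tested.

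Of the 8 neighbours called at least 4-fold higher, several are relatives of the gene they lie beside. AT2G18193, beside AT2G18190, had a log2 fold change of 6.36 (standard error 0.144, adjusted p = 1.5e-16) and is one of the loci left out. The chitinase gene AT2G43620, beside AT2G43610, had 15 and 17 counts in se-1 against 0 and 1 (adjusted p = 1.6e-05). The defensin gene PDF2.1 and the peptide gene LCR73, on either side of LCR68, rose by 2.97 and 2.52 on the log2 scale (adjusted p = 9e-14 and 3e-09). The others were not such relatives. AT2G36695, an uncharacterised gene beside AT2G36690, rose by 2.43, YLS5 beside AT2G38870 by 2.34, PDX1.1 beside AT2G38250 by 2.3 and AT2G19790 beside MIOX2 by 2.24. The largest fall among them was that of AT2G04480, with 1 and 3 counts in se-1 against 11 and 15 (log2 fold change -2.68, adjusted p = 0.00044).

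Of the 42 genes, 7 overlap another gene that has a row in the tables, on the opposite strand in each case. The strand setting of the counting is not given in the sources used here, so reads in the shared stretch cannot be assigned. The shared stretches were 26 to 202 nt long. AT2G46535 and AT2G37530, which overlap AT2G46540 and AT2G37540, had log2 fold changes of 1.8 and 1.55, while AT2G03690, which overlaps SPR1, and AT2G46380, which overlaps SDH8, had -0.5 and -0.64. AT2G40200, which overlaps the L41 gene, had 9 and 13 counts in se-1 against 2 and 2.

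Around SE itself the calls leaned the other way. Of 31 tested rows among the 25 rows on each side of SE, 8 (25.8%) were higher, 15 (48.4%) were lower and 8 did not pass, with a median log2 fold change of -0.19, and none was called at least 4-fold higher. The largest fall was that of AGO4 (-1.57), which binds small RNAs that direct DNA methylation, followed by the purple acid phosphatase gene PAP12 (-1.27), the phosphatase gene BSL3 (-1.23) and the transporter gene ABCG32 (-1.1), all with an adjusted p of 8.6e-08 or less. The copper transporter gene COPT6 and AT2G27080 rose by 1.63 and 1.2 (adjusted p = 0.00017 and 1.3e-08). These 31 rows had a median transcript length of 1906 nt, against 1741 nt over all tested rows, and the part of length was not tested.

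The closest relative outside the set was found by protein similarity for 35 of the 42 genes, and 27 of these relatives had enough counts to be tested. Of these, 17 (63.0%) were higher in se-1, 5 (18.5%) were lower and 5 did not pass, with a median log2 fold change of 0.76. Without AT2G18193, 16 of 26 (61.5%) were higher. Calls of at least 4-fold higher numbered 8 (29.6%), or 7 without AT2G18193, against 4.3% of all tested rows. The relatives had a median transcript length of 1220 nt, so short genes were frequent among them too. Reads can be shared where copies are nearly identical, and protein identity to the gene of the set ran from 51.4% to 100% among those tested.

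Beside AT2G18193 and AT2G43620, given above, the largest rises among relatives came from several families. AT5G24640, whose protein is 89.1% identical to AT2G41730, had 45 and 36 counts in se-1 against 0 and 0, at least 26.2-fold higher (adjusted p = 5.9e-08). MIOX4 rose by 3.42 (standard error 0.371, adjusted p = 1.5e-07), LCR69 by 2.53 and PDX1.1 by 2.3. AT3G62790, 97.6% identical in protein to the complex I gene AT2G47690, rose by 2.14 (standard error 0.0939, adjusted p = 6.8e-13). RD28, the aquaporin beside PIP2B with 96.8% identity, rose by 1.46, and the protease inhibitor gene AT2G38900 by 1.69.

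In other families the relative differed less or in the other direction. GSTF10, beside GSTF9 and 80.4% identical, rose by 0.3 (adjusted p = 0.0049), with 56.5 and 55.6 CPM in se-1 and 43.0 and 47.6 CPM in wild type. BRU6, the relative of GH3.1, rose by 0.84, CIPK5 by 0.78 and EBP, the relative of ERF71, by 0.76. PME61, the relative of ATPMEPCRD, stood at -0.34 without passing (adjusted p = 0.17), and MSBP1, that of MAPR2, at -0.04 (adjusted p = 0.75). AGP31 fell by 1.14 on the log2 scale while AGP30 had a ratio of 15.2, AT4G33820 fell by 1.02, AT2G42080 by 0.69 and AT4G14980 by 2.3. AT2G04070, 86.3% identical to AT2G04050, had 5 and 1 counts in se-1 and 4 and 4 in wild type and was not tested.

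**Figure D4:**
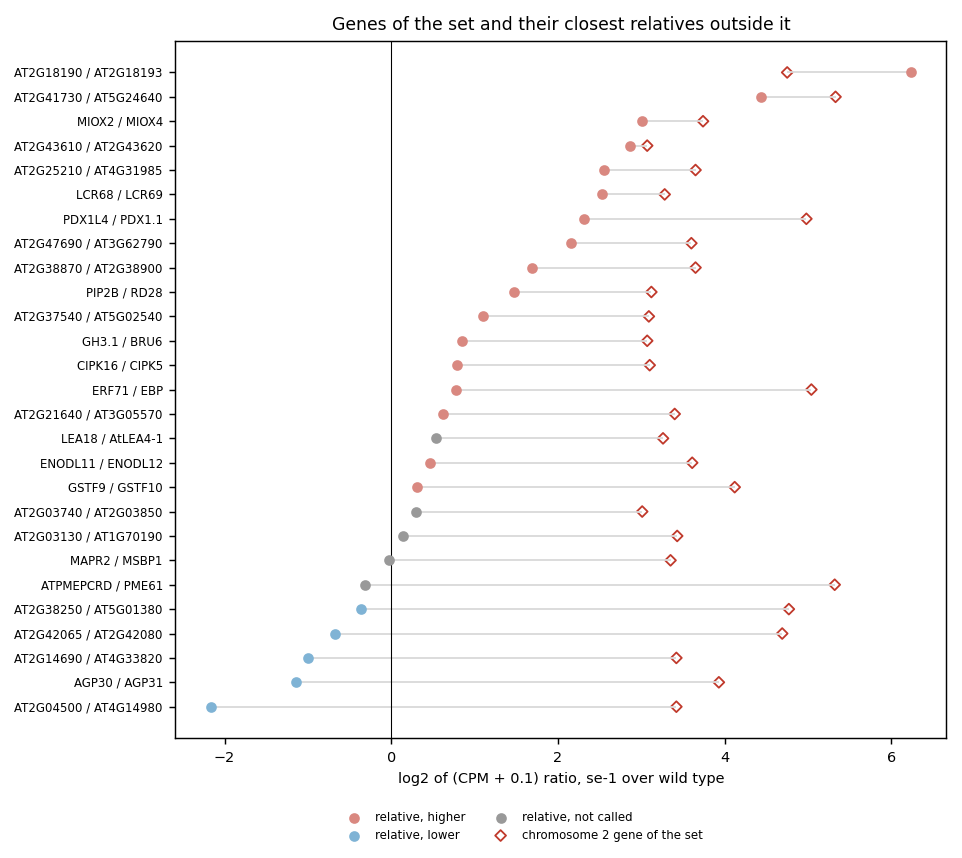
The log2 ratio of se-1 to wild type, with 0.1 CPM added to both means, for 27 genes of the set (open diamonds) and for their closest tested relatives (filled circles, coloured by the edgeR call as red for higher, blue for lower and grey for not passing). Each gene and its relative share a line. Of the relatives 17 were higher and 5 lower, and 1 of the 27, AT2G18193, has a higher ratio than its gene of the set. That most relatives lie below their gene is favoured by the choice, which took genes with high ratios and kept them out of the relatives.

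Genes elsewhere with the MDM upstream were counted too, an analysis added after the windows of the set had been seen. Of 183 tested rows with the motif, the set left out, 89 (48.6%) were higher in se-1, 41 (22.4%) were lower and 53 did not pass, with a median log2 fold change of 0.25. Without AT2G18193, 88 of 182 (48.4%) were higher. At least 4-fold rises numbered 22 (12%), or 21 without AT2G18193, against 4.3% of all tested rows. The median transcript length of all 183 rows was 1633 nt. Among the largest were AT5G24640, AT2G18193, AT5G55270 (243 and 286 counts in se-1 against 2 and 6), AT3G28580 (91 and 117 against 0 and 2) and AT5G52930 (71 and 132 against 0 and 1). The gene of the mitochondrial heat shock protein HSP23.6-MITO had 10 and 15 counts against none, at least 8.08-fold higher. CRF6, a cytokinin response factor, stood at 109 and 107 CPM in se-1 and at 16.1 and 13.9 CPM in wild type (log2 fold change 2.84, standard error 0.0942, adjusted p = 1.4e-14).

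The mitochondrial and oxidative stress list was written with earlier results of these data known. Beside AT2G21640, AT2G04050 and AT2G41730 it had 13 tested genes, of which 11 were higher, 1 was lower and 1 did not pass, where 36.2% of all tested rows were higher. Without NDB4, 10 of 12 (83.3%) were higher. UGT74E2 and GSTU1 of the list had too few counts to be tested. UGT74E2 had 0 and 0 counts in se-1 against 5 and 2 in wild type, and GSTU1 had none in any library. CRF6, CYP81D8 and ANAC017 of the list are also among the rows with the MDM. AOX1A, the alternative oxidase that bypasses the later respiratory complexes, stood at 58.3 and 59.6 CPM in se-1 and at 6.03 and 5.01 CPM in wild type (log2 fold change 3.41, standard error 0.109, adjusted p = 1.1e-14). AT5G09570, a small mitochondrial protein with a twin cysteine motif, rose by 3.8. The factor gene ANAC013 rose by 1.49 and ANAC017 had a log2 fold change of -0.27 (adjusted p = 0.0064 by edgeR). Without the first se-1 library it was -0.2 and did not pass (adjusted p = 0.058), and over all alternatives the adjusted p ran from 0.0031 to 0.058.

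**Figure D5:**
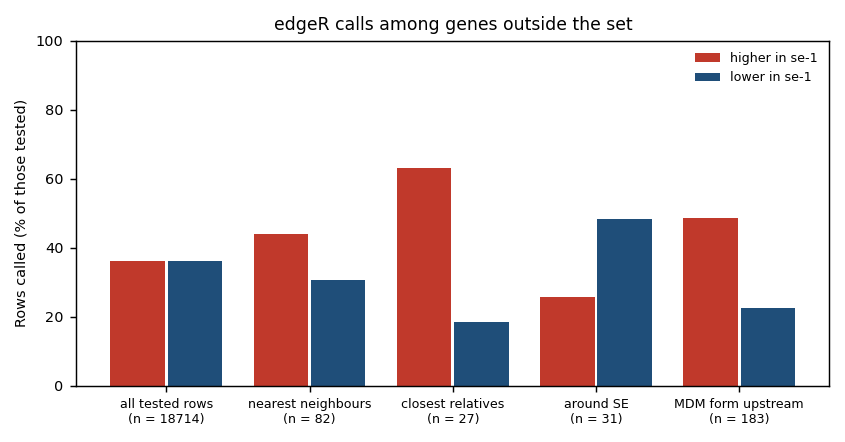
Percent of tested rows called higher (red) or lower (blue) in se-1 by edgeR at an adjusted p of 0.05, for all 18714 tested rows, the 82 nearest neighbours of the 42 genes, their 27 closest relatives, 31 rows around SE and 183 rows with the MDM upstream. Higher calls reach 63.0% among relatives and 48.6% among rows with the MDM against 36.2% of all rows, and around SE lower calls (48.4%) exceed higher calls (25.8%). The bars share genes and are not separate results. AT2G18193, AT2G43620, PDX1.1, RD28 and GSTF10 are both neighbours and relatives. AT2G18193 and AT5G24640 are both relatives and rows with the MDM.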

How the data were processed

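The authors deposited raw counts, whole numbers of reads per row with no normalization, for 4 embryo libraries. The submitters' processing notes name featureCounts, Cufflinks 2.2.1, HISAT2 2.0.5, FastQC 0.11.5 and, as genome build, TAIR10, and they assign no step to any of these. Not given in the sources used here were the strand setting, the annotation release and how reads with several matches were treated. Each table had 27880 rows, 94 of them joining several loci and used only in the test across all rows. Library totals were 18580516 to 20882004 counts. The tables hold no coordinates. Names, lengths, neighbours and upstream sequences were taken by locus identifier from the RefSeq TAIR10.1 annotation, which held 27576 identifiers and all 42 genes, and coordinates printed are those of TAIR10.1. The upstream sequence of AT2G18190 is not reported here.

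The 42 genes, the roles and the stress and marker lists were chosen with earlier results of these data known. All 42 may be named. Values in each library are given for those with the highest ratios and levels, those nearest SE or in runs, and those that share a family, and for the largest changes among neighbours, relatives and genes around SE. For other genes the test was that of edgeR 4.0.16, run under R 4.3.3 (rows kept by filterByExpr, TMM, quasi-likelihood F test, two-sided, Benjamini-Hochberg over 18714 rows at 0.05). A standard error is the absolute log2 fold change divided by the square root of F. The fit was run on simulated counts and called 87.8% of 50 changes of 1.5-fold and 94.0% of 50 of 2-fold. It called all changes of 4-fold and 8-fold (100% of 50 each, among 18361 genes), and the run was set to stop if those shares were low. The simulation had 1 fixed spread and few changed genes, all raised, unlike these data. It therefore does not measure the error rate of the calls given here. Relatives were found with BLAST 2.17.0 (blastp, e-value at most 1e-20) on proteins translated from the annotation. Floors of 3 counts and exact 95% intervals describe counting error alone. Alternatives were 12 for the choice of genes and 8 for the test, among them DESeq2 1.42.0. Same-numbered libraries were not treated as pairs.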

Additional observations from a re-analysis of the deposited data

How the results depend on the processing

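The number of genes chosen stayed within 1.5 times of 42 in 10 of 12 alternatives. It was 15 with 1 CPM added and 23 after division by the length-class median, and 39 to 45 when each library was left out in turn. The genes within 100 rows of SE numbered 1 as reported, 0 with 1 CPM added, 2 with 0.01 CPM added, 0 with no minimum count and 1 to 2 with a library left out. The share of eligible chromosome 2 rows past the ratio, 1.62% as reported, was 0.674% with 1 CPM added, 2.16% with 0.01 CPM added, 1.11% with no minimum count, 0.944% after the length division and 1.55% to 1.77% with a library left out.

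Calls among neighbours (32 to 36 higher, 22 to 25 lower), relatives (14 to 17 higher, 4 to 5 lower) and rows with the MDM (76 to 89 higher, 31 to 41 lower) stayed within 1.5 times under every alternative of the test run. DESeq2 called 5 of the rows around SE higher, against 8 by edgeR. With a library left out that count was 6 to 8, and the stress list had 0 to 1 lower genes (0 without se-1 replicate 1, where ANAC017 did not pass). The alternatives for the stress list and for rows with the MDM were chosen after seeing the data. The labels give same-numbered libraries only a shared number. Their deviations from the genotype means had a correlation across genes of 0.0263, which cannot show whether they shared a preparation. With the replicate block, 36 neighbours were higher and 25 lower. A gene with few wild-type counts has a ratio limited by depth.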
